A study of Mus musculus with 12 samples.

Results

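The genes described here are F3, Tfpi, Thbd, Plau, Plat, Plaur and Serpine2, which encode tissue factor, its inhibitor, thrombomodulin, both plasminogen activators, the urokinase receptor and an extracellular inhibitor of these proteases. They were taken by symbol from the deposited expression table, and all 7 were found among its 23446 genes. F3 was chosen by its measured values, because its response to acetoacetate differed between culture media. Its levels and fold changes are therefore described without a test in every comparison, while the other 6 genes were tested in a fit across all genes.

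The RNA came from C2C12, a long-established mouse myoblast line. Its cells divide in growth medium (GM), and in differentiation medium (DM) they stop cycling and fuse. Cells in each medium received acetoacetate (AA), a ketone body, or PBS as the control, for 12 h, which gave the groups DM-AA, DM-PBS, GM-AA and GM-PBS with 3 libraries each. The labels name no genetic change in any group, and all libraries come from the same line. The labels do not give the dose or salt of AA, nor whether replicates are separate cultures, so p-values reflect only how far these libraries differ, and that may be technical spread.

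Tissue factor is a membrane protein that binds factor VII and starts blood coagulation, and it also signals into cells through the protease-activated receptors. Tissue factor pathway inhibitor (Tfpi) blocks that first step, and thrombomodulin (Thbd) turns thrombin into an activator of the anticoagulant protein C. Urokinase (Plau) and tissue plasminogen activator (Plat) convert plasminogen to plasmin, which dissolves fibrin and degrades matrix. The receptor Plaur holds urokinase at the cell surface, and Serpine2 (protease nexin 1) inhibits thrombin, urokinase and plasmin. In skeletal muscle, urokinase is known to be needed for regeneration after injury in mice, and urokinase and its receptor have been studied in the migration and fusion of myoblasts.

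The sequences upstream of 3 of these genes are shown because F3 is the gene whose response differed between media, and Plaur and Tfpi moved in opposite directions with AA in GM. RefSeq promoter windows on GRCm38.p6 were found for 4 of the 7 genes (F3, Plaur, Tfpi and Serpine2), and the 250 bases before the start are printed 5′ to 3′ on the strand of the gene. Capitals mark matches to the AP-1 motif TGANTCA and to the GC box GGGCGG on either strand. F3 lies at chr3:121723287-121723536 on the plus strand, Plaur at chr7:24462233-24462482 on the plus strand, and the first of 2 Tfpi starts at chr2:84476760-84477009 on the minus strand.
F3: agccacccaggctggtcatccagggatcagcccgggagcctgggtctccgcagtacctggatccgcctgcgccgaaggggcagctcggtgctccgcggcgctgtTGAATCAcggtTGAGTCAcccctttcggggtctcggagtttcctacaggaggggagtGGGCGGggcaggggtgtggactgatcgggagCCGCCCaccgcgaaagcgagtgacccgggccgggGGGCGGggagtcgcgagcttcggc
Plaur: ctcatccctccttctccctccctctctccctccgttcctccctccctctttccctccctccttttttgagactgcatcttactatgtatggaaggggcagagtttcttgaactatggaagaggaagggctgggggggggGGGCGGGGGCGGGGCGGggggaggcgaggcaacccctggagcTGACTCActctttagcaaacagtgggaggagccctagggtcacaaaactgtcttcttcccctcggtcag
Tfpi: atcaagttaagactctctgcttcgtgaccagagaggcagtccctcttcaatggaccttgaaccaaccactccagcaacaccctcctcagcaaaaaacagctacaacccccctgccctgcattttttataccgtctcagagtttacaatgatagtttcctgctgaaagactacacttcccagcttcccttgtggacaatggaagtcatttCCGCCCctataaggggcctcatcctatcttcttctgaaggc
F3 held 2 AP-1 matches, at 146 to 140 and at 135 to 129 bases before the start, and 3 GC boxes, with no Egr1 match. Plaur held 1 AP-1 match at 69 to 63 bases and 3 GC boxes, at 111 to 106, 105 to 100 and 100 to 95 bases. The Egr1 motif GCGNGGGCG at 109 to 101 bases in Plaur overlaps the boxes at 111 to 106 and 105 to 100 bases and not the one at 100 to 95. Tfpi held 1 GC box before each of its 2 starts and no AP-1 match. Serpine2 held 6 GC boxes and 1 Egr1 match and no AP-1 match. Of 32851 promoter windows of this length, 6.75% held the AP-1 motif, 32.7% the GC box and 4.70% the Egr1 motif on either strand. The NF-kB motif was in 45.8% of windows. The motif is GGG, any 5 bases, then CC, and its 4 matches in F3 are 2 places read on both strands, and 1 of these overlaps a GC box. Plaur, Serpine2 and the second Tfpi start held 2 NF-kB matches each, and the first Tfpi start none. A match of letters is a description and does not show that a factor binds there. The motifs were chosen after the windows had been seen.

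Library totals of gene reads ran from 7959519 to 9893564, and 12230 genes, all 7 described here among them, had enough reads to be tested. Levels are given as the deposited RPKM (reads scaled by gene length and library size), which allows genes to be compared. Each difference is a log2 fold change with its SE, fitted to the counts by edgeR's quasi-likelihood method (n = 3 libraries in each group). A gene passed the test where its p, adjusted by Benjamini-Hochberg over all 12230 genes, was under 0.05. The myoblast markers Des and Myod1 averaged 485 and 64.1 RPKM. Endothelial defining markers were at or near 0, with 0 to 10 reads per library for each of Pecam1, Cdh5, Kdr, Tek and Esam and none for Tie1 and Emcn. Leukocyte markers Ptprc, Emr1 and Itgam had at most 1 read, although Cd14 had 83 to 162 and Cd68 had 13 to 36. Of the platelet markers, Gp9 had 0 reads, Pf4 had at most 1, and the 5 together summed to at most 1.18 RPKM. The 8 leukocyte markers summed to 6.21 to 8.16 RPKM in DM-AA libraries, 7.26 to 8.44 in DM-PBS libraries, 7.72 to 9.04 in GM-AA libraries and 8.45 to 9.86 in GM-PBS libraries. Fibroblast and smooth muscle markers, mostly Acta2, summed to 603 to 646 RPKM in DM-AA, 522 to 551 in DM-PBS, 475 to 511 in GM-AA and 430 to 465 in GM-PBS. Of these markers, Lum and Myh11 had at most 1 read per library. Acta2 averaged 481, Col1a1 34.7, Pdgfra 4.20, Dcn 3.59 and Cnn1 3.05 RPKM. The 6 myoblast markers summed to 728 to 803 RPKM in DM-AA, 632 to 644 in DM-PBS, 629 to 647 in GM-AA and 553 to 571 in GM-PBS. The part of these shifts in the results was not tested. Across tested genes the AA fold changes fell with GC content of the transcript (Spearman's rho -0.266 in DM and -0.274 in GM, across 12144 genes that are not independent), so values after removing the trend with GC and length are given where they end a call.

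Tissue factor mRNA was high in DM-PBS libraries and lower in the other 3 groups. F3 had 5.53, 4.76 and 5.33 RPKM in DM-AA libraries, against 11.5, 11.5 and 12.6 RPKM in DM-PBS libraries. In growth medium it had 5.20, 5.76 and 4.84 RPKM in GM-AA libraries, against 5.39, 4.80 and 5.53 RPKM in GM-PBS libraries. The 3 DM-PBS libraries lay above the other 9, whose ranges overlapped between all 3 groups. The values rest on 112 to 130 reads in DM-AA libraries, 271 to 328 reads in DM-PBS libraries, 122 to 146 reads in GM-AA libraries and 116 to 140 reads in GM-PBS libraries.

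**Figure D1:**
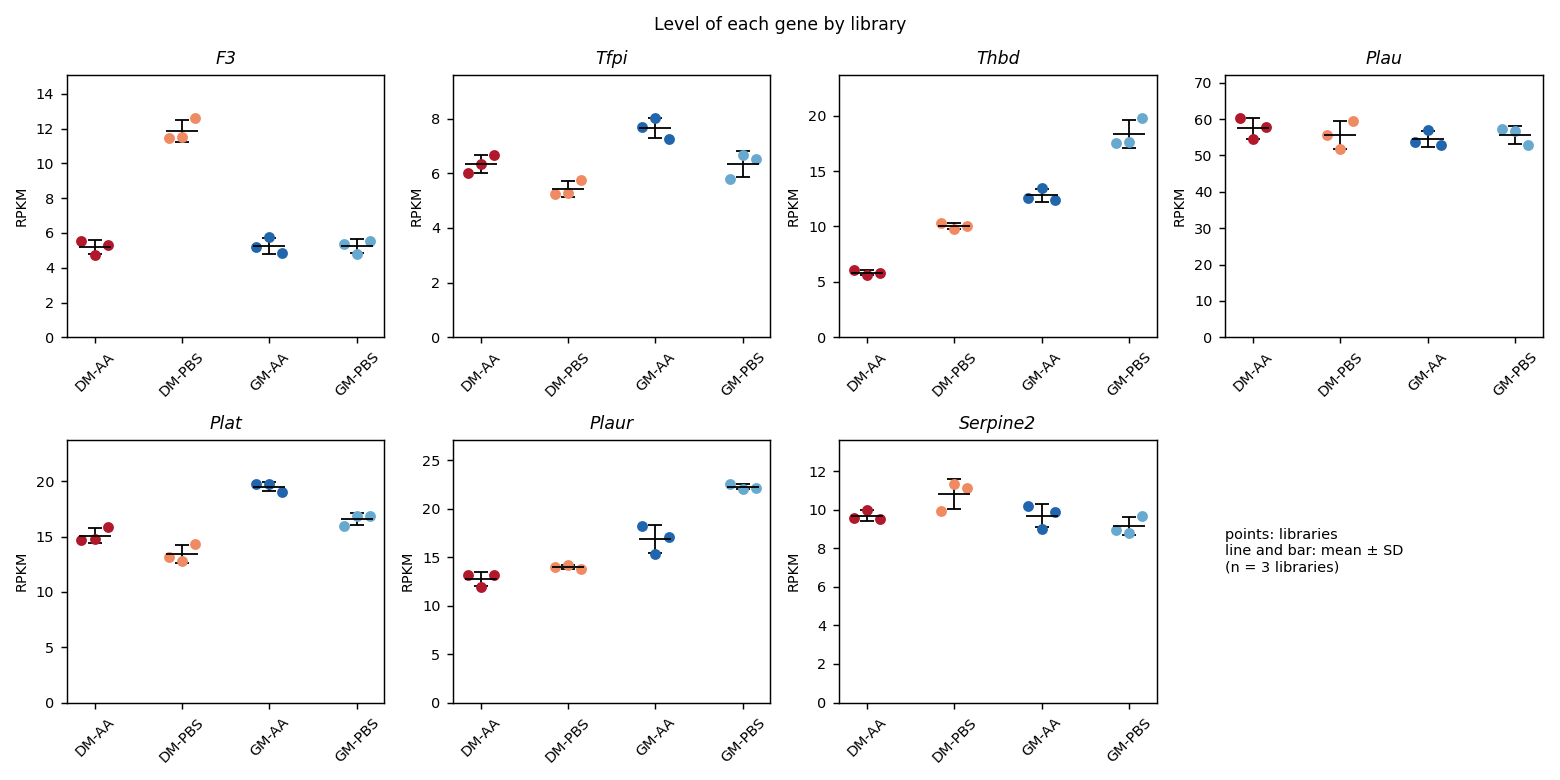
RPKM of each of the 7 genes (y axes, linear and from 0) in the 12 libraries, by group on the x axes; points are libraries, and lines and bars are the mean ± SD of 3 libraries. F3 stands at 11.5 to 12.6 RPKM in DM-PBS and at 4.76 to 5.76 RPKM in the other groups, Thbd has 4 ranges that do not overlap, and the ranges of Plau all overlap.

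As log2 fold changes, the effect of AA on F3 was -1.20 ± 0.094 in DM and -0.0043 ± 0.11 in GM, and their difference, by which it was chosen, was -1.19 ± 0.14. This difference was the 46th lowest among the 12230 genes. In PBS, F3 was at 1.15 ± 0.093 in DM relative to GM, which is 2.21-fold, and in AA it was at -0.045 ± 0.11. F3 was an average gene in level, at the 47.3rd percentile of tested genes by mean RPKM. Its coefficient of variation between the libraries of a group was 5.06% to 8.68% on the CPM scale (read counts scaled to library size), beside 5.81% to 9.0% for counting error alone. In a bulk sample, fewer cells that express a gene and less RNA per cell cannot be told apart.

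With AA in DM, Thbd passed the test as lower, and Tfpi passed as higher in a call that several alternative fits lost. Of the 6 tested genes 1 was higher (Tfpi) and 1 lower (Thbd) in DM-AA than in DM-PBS, where 26.4% of all tested genes passed, 12.6% higher and 13.8% lower. In GM, 2 were higher (Tfpi and Plat) and 2 lower (Thbd and Plaur) with AA, where 20.7% of all genes passed, 9.76% higher and 11.0% lower. By ranges of CPM, 2 of the 6 lay wholly above (Tfpi and Plat) and 3 wholly below PBS (Thbd, Plaur and Serpine2, the last of which overlapped in RPKM) in DM, against 19.9% and 20.2% of all genes. In GM these counts were 2 (Tfpi and Plat) and 2 (Thbd and Plaur), against 16.4% and 17.6%. The median log2 fold change of the 6 genes was -0.056 in DM and 0.017 in GM, against 0.0021 and -0.0034 for all tested genes. The AA comparisons in DM and in GM share no library.

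Tfpi rose modestly with AA in both media. It had 6.02, 6.32 and 6.67 RPKM in DM-AA libraries, against 5.23, 5.26 and 5.75 RPKM in DM-PBS libraries. The GM-AA libraries had 7.68, 8.01 and 7.27 RPKM in GM-AA libraries, against 5.81, 6.68 and 6.52 RPKM in GM-PBS libraries. All 3 AA libraries lay above the 3 PBS libraries in each medium, although GM-PBS and DM-AA overlapped. The changes were 0.22 ± 0.077 in DM (edgeR, adjusted p = 0.0346) and 0.26 ± 0.072 in GM (adjusted p = 0.00813). The Tfpi transcript has 39.7% GC, lower than in all but 4.92% of tested genes, and both calls were lost once the trend with GC and length was taken out (0.14, adjusted p = 0.178 in DM and 0.18, adjusted p = 0.0562 in GM). The GM call was also lost without GM-PBS 1 (adjusted p = 0.0689), and the DM call without DM-AA 2, DM-AA 3, DM-PBS 1 or DM-PBS 2 (adjusted p = 0.0730 to 0.153) and in DESeq2 (adjusted p = 0.0900).

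Thbd fell with AA in both media and was lower in DM than in GM, so that the 4 groups formed 4 separate levels. It had 6.08, 5.59 and 5.84 RPKM in DM-AA libraries, against 10.3, 9.74 and 10.0 RPKM in DM-PBS libraries. Thbd levels were higher in GM, at 12.5, 13.5 and 12.4 RPKM in GM-AA libraries, against 17.5, 17.7 and 19.8 RPKM in GM-PBS libraries. No library of one group overlapped another group. Thbd fell by 0.79 ± 0.070 with AA in DM (edgeR, adjusted p = 1.09e-10) and by 0.53 ± 0.057 in GM (adjusted p = 1.52e-08). The difference between these effects was -0.27 ± 0.091 and did not pass the test (adjusted p = 0.0847, 95% interval -0.45 to -0.081), although it did without GM-PBS 3 (adjusted p = 0.0346). Between media, Thbd fell by 1.16 ± 0.067 in AA (adjusted p = 3.28e-16) and by 0.90 ± 0.059 in PBS (adjusted p = 7.24e-15). Thrombomodulin is best known from endothelium. The summed endothelial list was 0.780 to 0.940 RPKM in DM-AA libraries, against 1.00 to 1.11 RPKM in DM-PBS libraries. It was 0.887 to 1.02 RPKM in GM-AA libraries, against 1.16 to 1.27 RPKM in GM-PBS libraries, mostly Eng, which fell with AA in GM (-0.54, adjusted p = 0.0282) but did not pass in DM (-0.39, adjusted p = 0.143), while the defining markers named above were at or near 0.

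Urokinase was the most abundant of the 7 mRNAs and did not pass the test in any comparison. Plau had 60.2, 54.4 and 57.8 RPKM in DM-AA libraries, against 55.5, 51.9 and 59.5 RPKM in DM-PBS libraries. The GM values were similar, at 53.7, 57.1 and 52.8 RPKM in GM-AA libraries, against 57.3, 56.7 and 52.9 RPKM in GM-PBS libraries. All 4 groups overlapped, at a level above 94.7% of tested genes. The AA effect was 0.035 ± 0.053 in DM (edgeR, adjusted p = 0.673, 95% interval -0.072 to 0.14) and -0.039 ± 0.053 in GM (adjusted p = 0.657, 95% interval -0.15 to 0.068). The medium difference was 0.049 ± 0.053 in AA (adjusted p = 0.466) and -0.026 ± 0.053 in PBS (adjusted p = 0.705).

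Plat, the other activator, was lower in DM than in GM and higher with AA in GM. It had 14.7, 14.8 and 15.8 RPKM in DM-AA libraries, against 13.2, 12.8 and 14.3 RPKM in DM-PBS libraries. Plat had 19.8, 19.7 and 19.0 RPKM in GM-AA libraries, against 15.9, 16.9 and 16.9 RPKM in GM-PBS libraries. The 4 groups did not overlap, with GM-AA highest and DM-PBS lowest. Plat rose by 0.23 ± 0.057 with AA in GM (edgeR, adjusted p = 0.00384), and the value in DM was 0.16 ± 0.061 (adjusted p = 0.0521, 95% interval 0.035 to 0.28). The DM value passed without DM-PBS 3 (adjusted p = 0.0249) or GM-PBS 1 (adjusted p = 0.0454), with relative log expression factors (adjusted p = 0.0456) and with the library size behind RPKM (adjusted p = 0.0383). The AA effects on Plat differed between media by -0.068 ± 0.084, which did not pass the test (adjusted p = 0.764). Between media, Plat fell by 0.40 ± 0.058 in AA (adjusted p = 5.66e-07) and by 0.33 ± 0.060 in PBS (adjusted p = 1.97e-05).

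The urokinase receptor fell with AA in GM and was lower in DM. Plaur had 13.2, 11.9 and 13.2 RPKM in DM-AA libraries, against 14.0, 14.3 and 13.8 RPKM in DM-PBS libraries. Plaur had 18.2, 15.4 and 17.1 RPKM in GM-AA libraries, against 22.6, 22.1 and 22.2 RPKM in GM-PBS libraries. Again no 2 groups overlapped, with GM-PBS highest, then GM-AA, DM-PBS and last DM-AA. Plaur fell by 0.41 ± 0.070 with AA in GM (edgeR, adjusted p = 4.88e-05), and the value in DM was -0.15 ± 0.080 (adjusted p = 0.181, 95% interval -0.31 to 0.016). The difference of these effects was 0.26 ± 0.11 and did not pass the test (adjusted p = 0.170, 95% interval 0.045 to 0.48). Between media, Plaur fell by 0.43 ± 0.078 in AA (adjusted p = 1.67e-05) and by 0.70 ± 0.073 in PBS (adjusted p = 6.10e-10).

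Serpine2 group means spanned only 9.13 to 10.8 RPKM. It had 9.56, 10.0 and 9.50 RPKM in DM-AA libraries, against 9.91, 11.3 and 11.1 RPKM in DM-PBS libraries. Serpine2 had 10.2, 9.01 and 9.86 RPKM in GM-AA libraries, against 8.96, 8.77 and 9.66 RPKM in GM-PBS libraries. DM-PBS was highest on average and lay apart from GM-PBS, while the AA groups of the media overlapped. Serpine2 rose by 0.21 ± 0.079 in DM relative to GM in PBS (edgeR, adjusted p = 0.0235). That call was lost in DESeq2 (adjusted p = 0.0712) and without GM-PBS 1, GM-PBS 2, DM-PBS 2 or DM-PBS 3 (adjusted p = 0.0638 to 0.104). The AA effects were -0.16 ± 0.079 in DM (adjusted p = 0.126) and 0.074 ± 0.080 in GM (adjusted p = 0.566), and in AA the medium difference was -0.026 ± 0.080 (adjusted p = 0.806).

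**Figure D2:**
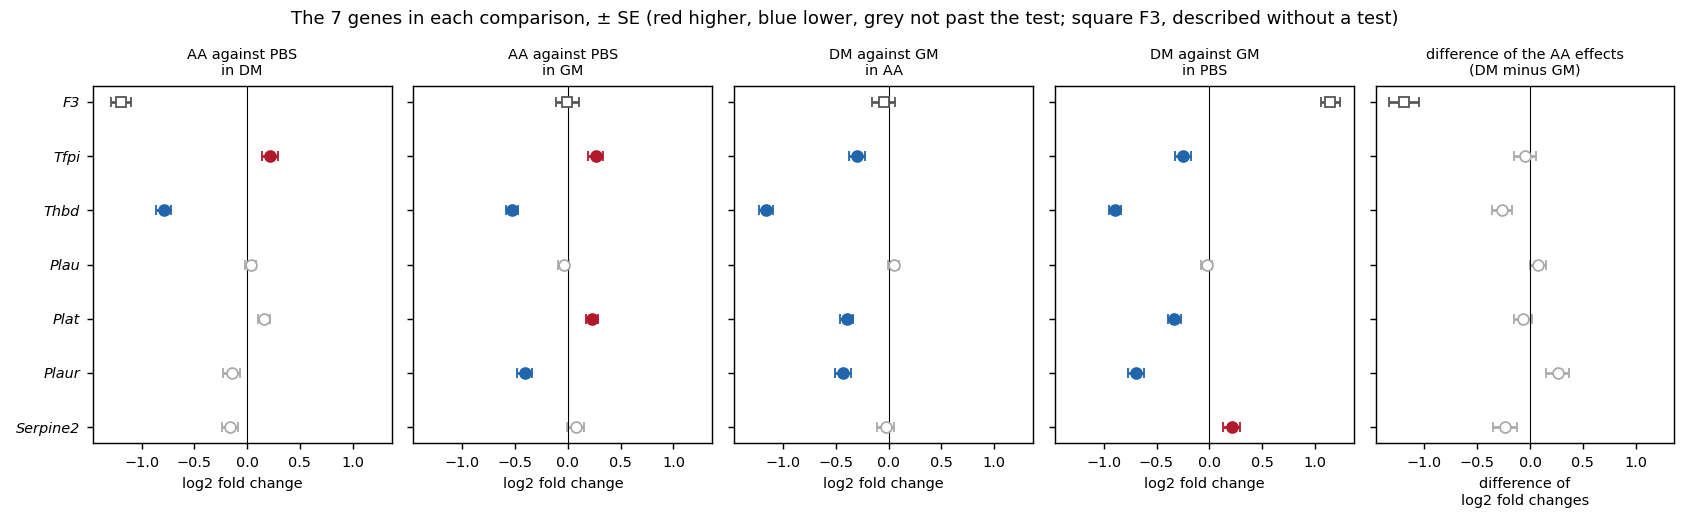
Log2 fold changes ± SE (x axes) of the 7 genes (rows) in AA against PBS within each medium, DM against GM within each treatment, and the difference of the AA effects. Filled red and blue points passed the test as higher and lower, open grey points did not, and the squares are F3, which was described without a test; F3 is at -1.20 with AA in DM and at 1.15 with DM in PBS and close to 0 in the other columns but the difference.

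Between media, 4 of the 6 tested genes were lower in DM. In AA these were Tfpi, Thbd, Plat and Plaur, with 0 higher, where 52.2% of all genes passed, 26.3% lower and 25.9% higher; no gene of the 6 was higher at an unadjusted p under 0.05 or in DESeq2. In PBS the same 4 genes were lower and 1, Serpine2, was higher, where 54.4% of all genes passed, 27.4% lower and 27.0% higher. The same genes had ranges of CPM apart from GM, against 28.8% lower and 28.6% higher of all genes in AA, and 29.7% in each direction in PBS. Tfpi fell by 0.30 ± 0.073 in AA (edgeR, adjusted p = 8.15e-04) and by 0.25 ± 0.077 in PBS (adjusted p = 0.00580). The median of the 6 was -0.35 in AA and -0.29 in PBS, against 0.0058 and 0.0071 for all tested genes. For the difference of the AA effects, 0 of the 6 genes passed in edgeR or in DESeq2, and 1 higher and 2 lower had an unadjusted p under 0.05, where 5.24% of all genes passed, 2.58% higher and 2.67% lower. In these comparisons, DM against GM shares its libraries with the AA comparisons.

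The balance of F3 to its inhibitor set DM-PBS apart from the other groups. The ratio of F3 to Tfpi in RPKM was 0.823 ± 0.086 in DM-AA, against 2.19 ± 0.0025 in DM-PBS (mean ± SD, n = 3). Counting error alone in DM-PBS was 5.81% for F3 and 6.05% for Tfpi. The SD of the ratio there is smaller than that, so it does not measure how precisely the ratio is known. The ratio was 0.687 ± 0.028 in GM-AA, against 0.832 ± 0.11 in GM-PBS. This ratio carries the F3 values by which the gene was chosen and is given as a description. The ratio of Plau to its receptor Plaur was 4.51 ± 0.11 in DM-AA and 3.97 ± 0.33 in DM-PBS, and 3.25 ± 0.41 in GM-AA and 2.49 ± 0.097 in GM-PBS. The order from high to low is thus DM-AA, DM-PBS, GM-AA and GM-PBS, with DM-PBS at 3.64 to 4.30 and GM-AA at 2.94 to 3.71, which overlap. The ratio of Plau to its inhibitor Serpine2 was 5.94 ± 0.45 in DM-AA and 5.17 ± 0.53 in DM-PBS, and 5.66 ± 0.59 in GM-AA and 6.11 ± 0.55 in GM-PBS, with ranges that overlapped between all groups.

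**Figure D3:**
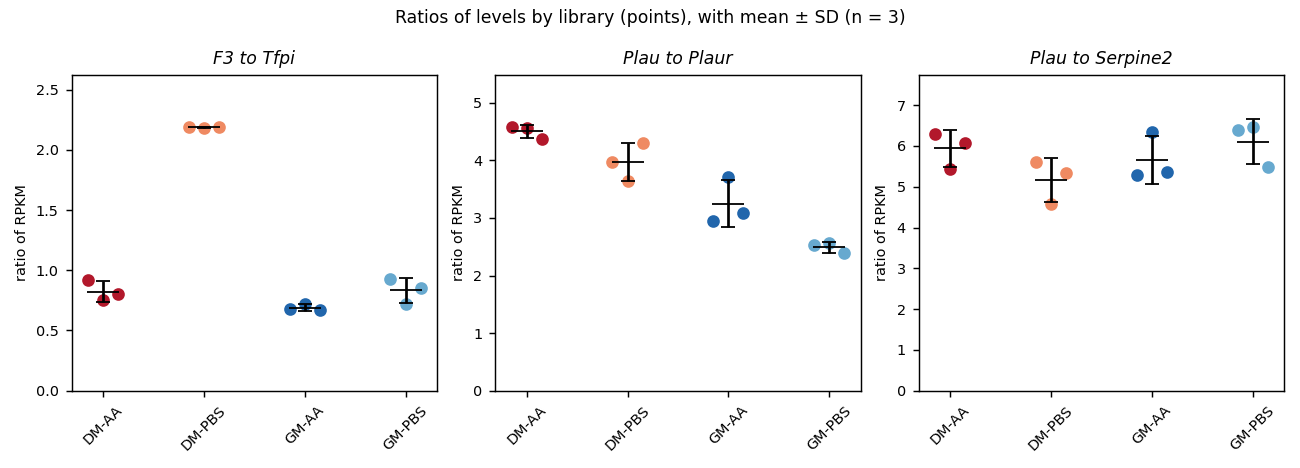
Ratios of RPKM (y axes, linear and from 0) of F3 to Tfpi, Plau to Plaur and Plau to Serpine2 in the 12 libraries by group; points are libraries, and lines and bars are the mean ± SD of 3. F3 to Tfpi is near 2.19 in DM-PBS and below 1 in every other library, while Plau to Serpine2 lies between 4.57 and 6.46 in all 12 libraries with no group apart.

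In a list of other genes related to the plasminogen system, most tested genes were lower with AA. The list includes inhibitors, receptors, a growth factor, a matrix protein and a complement protease. Of 16 genes in that list, 9 could be tested. In DM 6 fell and 0 rose in edgeR (1, Igf2r, was higher at an unadjusted p under 0.05, and 0 in DESeq2), and in GM 5 fell and 1 rose. S100a10 and Plgrkt did not pass the test with AA in either medium. Of all tested genes, 13.8% were lower and 12.6% higher in DM, and 11.0% lower and 9.76% higher in GM. The count that fell in DM was 5 in DESeq2, with the library size behind RPKM and in 6 of the 12 fits that left out 1 library. The list medians were -0.50 in DM and -0.21 in GM, against 0.0021 and -0.0034 for all tested genes. Serpinb2 (plasminogen activator inhibitor 2) averaged 1.16 ± 0.12 RPKM in DM-AA and 1.66 ± 0.22 RPKM in DM-PBS, and 9.84 ± 0.88 RPKM in GM-AA and 15.9 ± 1.5 RPKM in GM-PBS (SD, n = 3 each). It fell by 3.11 ± 0.14 in DM relative to GM in AA (edgeR, adjusted p = 1.31e-19), and in PBS it fell by 3.29 ± 0.11 (adjusted p = 3.33e-22). With AA it was at -0.52 ± 0.20 in DM, close to the threshold (adjusted p = 0.0471), and in GM it fell by 0.70 ± 0.081 (adjusted p = 6.04e-08).

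Several of the genes that fell encode a receptor, a growth factor or a matrix protein. The list could not hold the activators Plau and Plat, which are described above. Hgf, a growth factor whose precursor urokinase can cleave, fell by 1.06 ± 0.10 with AA in DM (edgeR, adjusted p = 5.86e-10) and by 1.03 ± 0.090 in GM (adjusted p = 2.23e-10). Lrp1, the endocytic receptor that clears complexes of urokinase and its inhibitors, fell by 0.50 ± 0.060 in DM (adjusted p = 6.41e-08) and by 0.45 ± 0.060 in GM (adjusted p = 1.05e-06). Masp1, a protease of the lectin pathway of complement, fell by 0.71 in both media, with an SE of 0.12 in DM and 0.083 in GM (adjusted p = 1.76e-05 and 9.47e-08). Thbs1, the matrix glycoprotein thrombospondin 1, also had a negative difference of its AA effects. It averaged 179 ± 11 RPKM in DM-AA and 267 ± 3.5 RPKM in DM-PBS, and 118 ± 8.9 RPKM in GM-AA and 121 ± 2.4 RPKM in GM-PBS. Thbs1 fell by 0.59 ± 0.051 with AA in DM (adjusted p = 8.24e-11), and its effects differed between media by -0.55 ± 0.073 (adjusted p = 8.19e-06). Between media, 2 of the 9 genes rose and 6 fell in AA, and 3 rose and 5 fell in PBS, where 52.2% of all tested genes passed in AA and 54.4% in PBS. Without GM-PBS 2 the count that rose with AA in GM was 2, and the count that rose in DM was 1 without DM-AA 1 or once the GC and length trend was removed.

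Of the protease-activated receptors, through which thrombin and the complex of tissue factor and factor VII signal, F2r was the abundant one. The thrombin receptor F2r had 88.2, 86.4 and 83.2 RPKM in DM-AA libraries, against 124, 127 and 126 RPKM in DM-PBS libraries. F2r had 91.2, 91.4 and 88.3 RPKM in GM-AA libraries, against 114, 111 and 112 RPKM in GM-PBS libraries. The AA libraries lay below the PBS libraries in both media, with the highest values in DM-PBS. F2r fell by 0.56 ± 0.043 with AA in DM (edgeR, adjusted p = 3.01e-12) and by 0.33 ± 0.043 in GM (adjusted p = 5.93e-07). The effects differed by -0.23 ± 0.060 (adjusted p = 0.0150), a call lost without DM-AA 3 (adjusted p = 0.0590). The other receptors F2rl1, F2rl2 and F2rl3 averaged 0.516, 0.661 and 0.225 RPKM. Of the 3 tested receptors 2 fell in DM and 1 in GM, and 0 rose in either medium at an unadjusted p under 0.05 or in DESeq2, where 13.8% of all tested genes were lower in DM and 11.0% in GM. The second to fall in DM was F2rl1, at -0.73 ± 0.25 (adjusted p = 0.0298), a call lost in DESeq2 (adjusted p = 0.127) and without any 1 of DM-AA 1, DM-AA 2, DM-AA 3, DM-PBS 1 or DM-PBS 2 (adjusted p = 0.0560 to 0.127). Without GM-AA 1, 2 of the receptors fell in GM. Between media, F2r rose by 0.14 ± 0.042 in PBS (edgeR, adjusted p = 0.00683), and in AA it was at -0.099 ± 0.043 (adjusted p = 0.0535). F2rl1 rose by 1.51 ± 0.36 in AA (adjusted p = 7.29e-04) and by 1.38 ± 0.28 in PBS (adjusted p = 8.56e-05). These values rest on few reads, 3 to 44 per library for F2rl1 and 11 to 29 for F2rl2. Of all tested genes, 52.2% passed between media in AA and 54.4% in PBS. F2rl2 was at -0.68 ± 0.28 in DM relative to GM in AA (edgeR, adjusted p = 0.0416). That call was lost in DESeq2 (adjusted p = 0.106) and in several other alternatives.

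Most genes of circulating coagulation proteins had few or no reads. Of 22 genes in the list of coagulation and anticoagulant proteins, 8 could be tested and 7 had 0 reads in all 12 libraries, among them F10, F9 and the 3 fibrinogen genes. Factor VII, the partner of tissue factor, had 0 to 12 reads per library. Pros1, the anticoagulant protein S, was an exception at 316 to 434 reads and a mean of 8.06 RPKM, and it did not pass the test with AA in DM (-0.11 ± 0.072, edgeR, adjusted p = 0.297) or in GM (-0.057 ± 0.072, adjusted p = 0.631). With AA, 0 of the 8 passed the test in DM in edgeR or DESeq2 (2 were lower and 0 higher at an unadjusted p under 0.05), where 26.4% of all tested genes passed. In GM, where 20.7% passed, Gas6 rose by 0.59 ± 0.20 (edgeR, adjusted p = 0.0346) and Vkorc1, the vitamin K reductase, fell by 0.37 ± 0.11 (adjusted p = 0.0134). Both calls were lost without GM-AA 3 or GM-PBS 1, and that of Gas6 also in DESeq2 and when GM-AA 2, GM-PBS 2 or else GM-PBS 3 was left out (adjusted p = 0.0508 to 0.165 over these settings). In DM the list had 1 lower call without any 1 of DM-AA 1, DM-AA 3 or DM-PBS 1, and 2 with no low-count filter. Between media, 2 of the 8 rose and 1 fell in AA, and in PBS 1 rose and 1 fell. Of all tested genes, 52.2% passed in AA and 54.4% in PBS. F8, at 12 to 33 reads per library, rose by 0.82 ± 0.25 in AA (edgeR, adjusted p = 0.00687) and by 0.86 ± 0.26 in PBS (adjusted p = 0.00508). Vkorc1 rose by 0.34 ± 0.11 in AA (adjusted p = 0.00809). The F8 and Vkorc1 calls in AA were lost without DM-AA 3 (adjusted p = 0.0560 and 0.130). The endothelial protein C receptor Procr, which presents protein C to thrombomodulin, was at -0.36 ± 0.15 in DM relative to GM in AA (adjusted p = 0.0387) and at -0.37 ± 0.15 in PBS (adjusted p = 0.0340). Both Procr calls were lost in DESeq2 (adjusted p = 0.0770 and 0.0605), that in AA also with the library size behind RPKM (adjusted p = 0.0579) or the trend with GC and length taken out (adjusted p = 0.0630), and both without some single libraries (GM-AA 1, GM-AA 2, DM-AA 2 or DM-AA 3 in AA, and GM-PBS 2, GM-PBS 3, DM-PBS 1 or DM-PBS 2 in PBS; adjusted p = 0.0800 to 0.232).

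**Figure D4:**
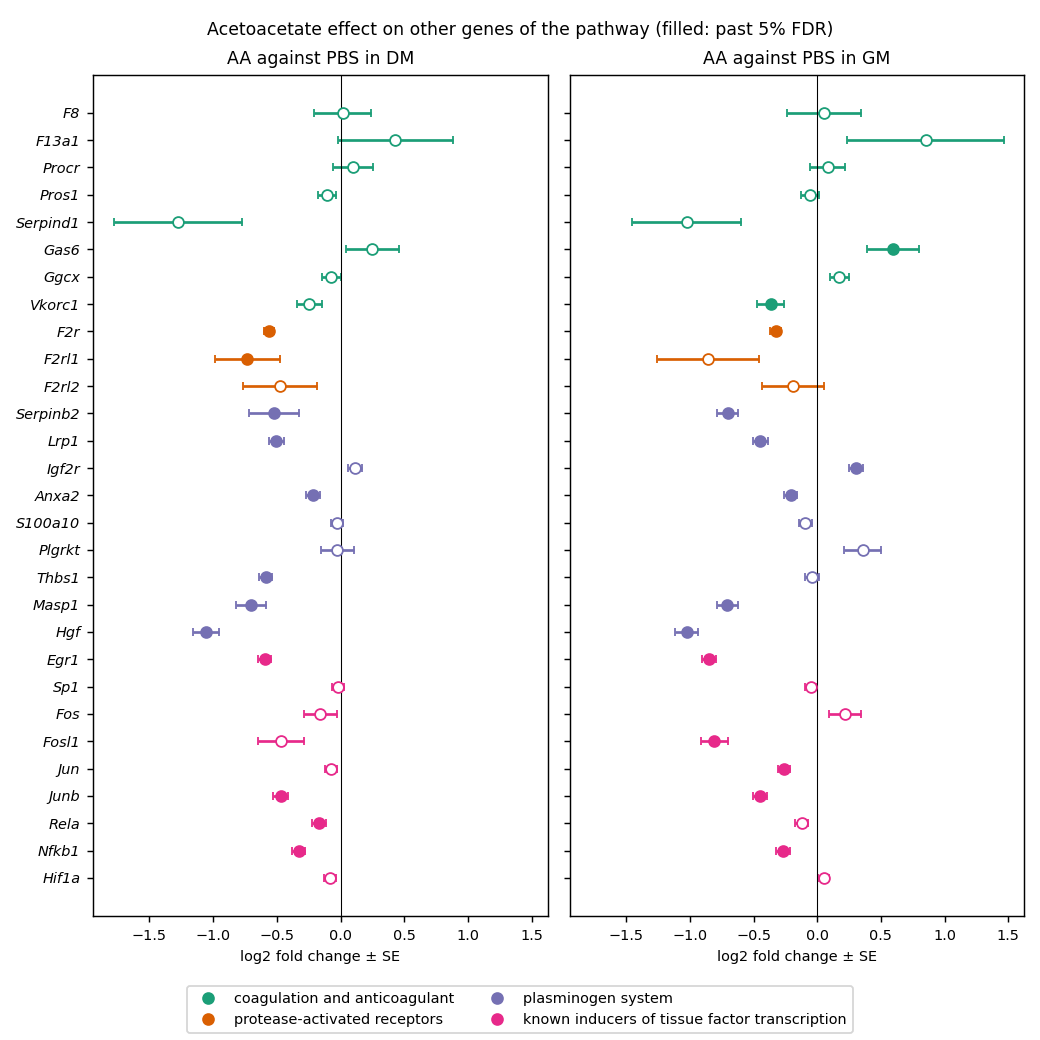
Log2 fold change ± SE with AA in DM (left) and in GM (right) for every tested gene of the 4 lists of other pathway genes, in rows coloured by list; filled points passed the test. Hgf, Masp1, Lrp1, F2r, Egr1 and Junb lie below 0 in both media, and Thbs1 passes in DM, at -0.59, and not in GM, at -0.041.

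Several transcription factors known to act on the tissue factor gene were lower with AA in both media. Of 9 such genes, all tested, 4 fell in DM and 5 in GM, and 0 rose in either at an unadjusted p under 0.05 or in DESeq2. Of all tested genes, 13.8% were lower in DM and 11.0% in GM. The medians of the 9 were -0.17 in DM and -0.26 in GM, against 0.0021 and -0.0034 for all tested genes. Sp1, Fos and Hif1a did not pass the test with AA in either medium. Between media, Hif1a was at -0.41 ± 0.046 in DM relative to GM in AA (edgeR, adjusted p = 3.07e-09). In PBS it was at -0.29 ± 0.046 (adjusted p = 3.37e-06). Whether any of these 9 factors acts on F3 in these cells was not tested. Egr1, an immediate early factor, averaged 65.6 ± 3.0 RPKM in DM-AA and 98.4 ± 5.6 RPKM in DM-PBS, and 33.0 ± 0.52 RPKM in GM-AA and 59.0 ± 3.1 RPKM in GM-PBS. It was thus highest in DM-PBS, and its ranges in the other 3 groups did not overlap. Egr1 fell by 0.60 ± 0.050 with AA in DM (edgeR, adjusted p = 3.62e-11) and by 0.85 ± 0.053 in GM (adjusted p = 1.37e-13). The effects differed by 0.25 ± 0.073 (adjusted p = 0.0352), a call lost when any 1 of 8 libraries was left out (numbers 1 and 2 of DM-AA, 1 and 3 of DM-PBS, 1 and 2 of GM-AA, and 2 and 3 of GM-PBS; adjusted p = 0.0524 to 0.114). Between media it rose by 0.96 ± 0.053 in AA (adjusted p = 7.98e-17) and by 0.71 ± 0.050 in PBS (adjusted p = 5.49e-14). Junb, a subunit of AP-1, fell by 0.47 ± 0.058 in DM (adjusted p = 1.24e-07) and by 0.45 ± 0.058 in GM (adjusted p = 4.45e-07). Fosl1, another AP-1 subunit, averaged 2.84 ± 0.35 RPKM in DM-AA and 3.91 ± 0.26 RPKM in DM-PBS, and 9.45 ± 2.5 RPKM in GM-AA and 16.5 ± 0.87 RPKM in GM-PBS, so its order between media was opposite to that of Egr1. With AA, Fosl1 fell by 0.81 ± 0.11 in GM (edgeR, adjusted p = 7.95e-07), and in DM it was at -0.47 ± 0.18 (adjusted p = 0.0508). The AP-1 subunit Jun fell by 0.26 ± 0.046 in GM (adjusted p = 7.82e-05). It did not pass in DM (-0.073 ± 0.046, adjusted p = 0.263). Nfkb1, a subunit of NF-kB, fell by 0.33 ± 0.052 in DM (adjusted p = 8.84e-06) and by 0.27 ± 0.052 in GM (adjusted p = 2.55e-04). Its partner Rela was at -0.17 ± 0.052 in DM (adjusted p = 0.0149), a call lost once the trend with GC and length was taken out (adjusted p = 0.233) and without DM-AA 2 or DM-PBS 3 (adjusted p = 0.0950 and 0.0785).

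The genes whose profile over the 12 libraries was most like that of F3 were Gas2, Tm7sf2, Carns1, Synpo and Wbscr27. Likeness was the root mean square difference of log2 CPM, each gene centred on its own mean, among 8062 tested genes with a mean of at least 5 RPKM in their highest group. It was 0.18 to 0.22 for these 5, against a median of 0.53 for all 8062. Tm7sf2, a sterol reductase, averaged 5.72 ± 0.42 RPKM in DM-AA and 10.4 ± 0.43 RPKM in DM-PBS, and 4.82 ± 0.40 RPKM in GM-AA and 6.02 ± 0.24 RPKM in GM-PBS. Synpo, which encodes the actin-associated protein synaptopodin, averaged 14.9 ± 0.83 RPKM in DM-AA and 27.2 ± 0.79 RPKM in DM-PBS, and 12.7 ± 0.74 RPKM in GM-AA and 17.5 ± 0.74 RPKM in GM-PBS. Gas2, a cytoskeletal protein of growth-arrested cells, averaged 3.27 ± 0.12 RPKM in DM-AA and 5.97 ± 0.98 RPKM in DM-PBS, and 2.70 ± 0.25 RPKM in GM-AA and 3.11 ± 0.068 RPKM in GM-PBS. All 5 were highest in DM-PBS, which follows from their choice by likeness to F3 and is not independent evidence. Gas2, Carns1 and Wbscr27 reached a mean of 5 RPKM only in DM-PBS. Each of the 5 was also lower on average in GM-AA than in GM-PBS, with log2 fold changes of -0.21 to -0.47 where F3 was at -0.0043.

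**Figure D5:**
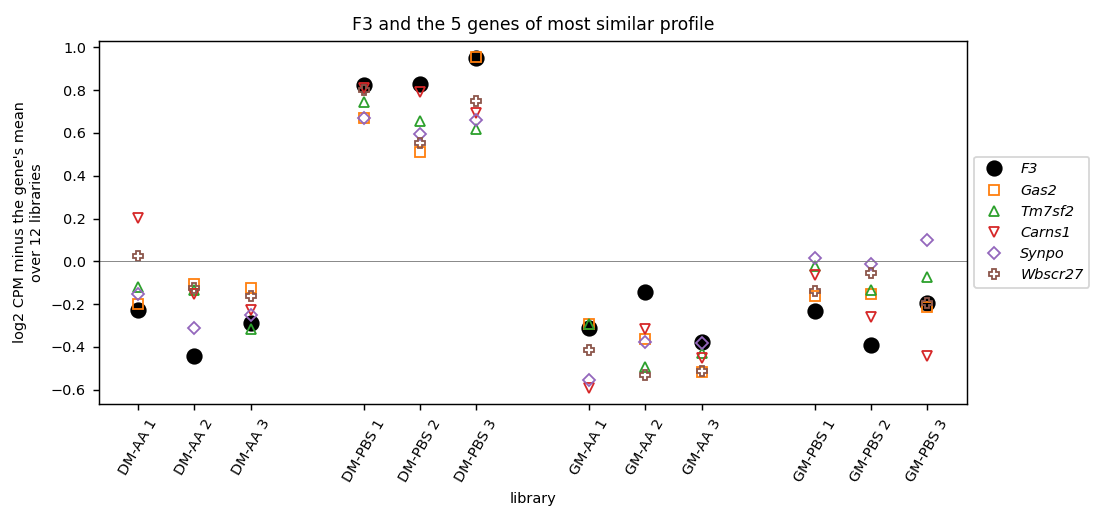
Log2 CPM of F3 (black) and of the 5 genes of most similar profile (open symbols) in each of the 12 libraries, centred on each gene's mean over them (y axis). All 6 genes are highest in the 3 DM-PBS libraries, which follows from the choice by likeness to F3. F3 is lower in the other 9, with ranges that overlap between groups.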

How the data were processed

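The 12 libraries (4 groups of 3) hold messenger RNA of C2C12 cells. The submitters' processing notes name BWA 0.5.9-r16 and the mouse build mm9. How reads were counted per gene, on which strand and with which annotation is not given in the sources used here. Deposited were, in 1 table, raw read counts and RPKM per gene, with a gene length that is the union of exons, per the file headers. The deposited RPKM values could be rebuilt from the counts and lengths within 0.0005%, and every column was matched to a sample (0 unmatched). The low-count filter was filterByExpr with the groups (12230 genes, 99.9% of counts). Counts were scaled by TMM and fitted with 1 model of 4 group means to the 12 libraries (edgeR 4.0.16, glmQLFit and glmQLFTest, two-sided, Benjamini-Hochberg over the 12230 genes, 5% FDR; 8 residual df, common BCV 4.08%). The SE is the absolute log2 fold change divided by the square root of F, and intervals use the same SE. CPM was scaled with TMM, with a prior count of 2 on the log scale. On simulated counts with changed genes in the GM comparison, 84.8% of 1.5-fold and 95.9% of 2-fold changes among 12101 genes were recovered, and 5.82% of the calls were false. Libraries of a group differed by more than counting noise (chi-square per degree of freedom 1.46 to 2.94). GC content came from the longest GENCODE M21 transcript (99.3% of tested genes matched by name), promoter windows from RefSeq on GRCm38.p6, and no exon of the 7 genes overlapped another gene there (0%), whereas reads were aligned to mm9. Alternatives were DESeq2 1.42.0 with its size factors, relative log expression factors, the library size behind RPKM, no low-count filter, only the groups compared, a replicate block, removal of each library's GC and length trend, that removal with the block, and leaving out each library. The genes and lists were chosen with earlier results of these data known. The text names all 7 genes, from each list genes among the 4 of smallest p past 5% FDR in a comparison, and the 5 most similar to F3. Marker genes, Pros1, Igf2r, Plgrkt, F2rl3, Sp1, Fos, F10, F9 and the thinly read coagulation genes are named outside that rule, after their values were seen. A further gene of the plasminogen list is not reported here and was left out of its counts.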

Additional observations from a re-analysis of the deposited data

Results flagged for a closer look

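The effect of AA on F3 differed between the media, with a log2 fold change of -1.20 ± 0.094 in DM and -0.0043 ± 0.11 in GM, a difference of -1.19. F3 was chosen for this difference, so it is a description of these 12 libraries and not independent evidence. Over 19 alternatives the difference lay between -1.24 and -1.12. None of the other 6 genes had a difference past the test in edgeR or DESeq2, although 3 had an unadjusted p under 0.05.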

How the results depend on the processing

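All 198 alternative counts of all tested genes stayed within 1.5 times their main values. With AA in DM, the members other than F3 that were higher numbered 1, against 2 with relative log expression factors or the library size behind RPKM, and 0 after removing the trend with GC and length, with the replicate block together with that removal, and in DESeq2; leaving out 1 library gave 0 to 2. With AA in GM, 2 were higher, against 1 with the GC and length trend removed, with or without the replicate block; leaving out 1 library gave 1 to 2. In DM relative to GM in PBS, 1 was higher, against 0 in DESeq2, and 0 to 1 without 1 library. For the difference of the AA effects, 0 were lower, and 0 to 1 without 1 library. The cause was not tested. Small values changed sign: Serpine2 in DM relative to GM in AA (0.0014 with the library size behind RPKM, and -0.074 to 0.0009 when 1 library was left out, the highest without GM-AA 1, against -0.026), Plau with AA in DM (-0.0092 to 0.0842 when 1 library was left out, below 0 without DM-AA 1 or DM-PBS 2, against 0.035), Plau in DM relative to GM in PBS (-0.073 to 0.021, above 0 without DM-PBS 2, against -0.026) and the difference of the AA effects on Tfpi (-0.0874 to 0.012, above 0 without GM-PBS 1, against -0.047). Libraries with the same replicate number did not deviate together (correlations of -0.0676 to 0.0823 over 18 pairs, against -0.0763 to 0.0816 over 36 pairs of other numbers; 2 of 12 libraries correlated best with their own number), so the numbers were not taken as pairs. With the replicate block, 1478 genes were higher and 1631 lower with AA in DM, 1156 and 1288 in GM, and the counts of members did not change. For the difference of the AA effects only the fit of all 4 groups exists. With 112 to 328 reads per library for F3 and 209 to 437 for Plaur, small differences could not be seen. Values larger than their SE also failed, such as Plat with AA in DM at 0.16 ± 0.061 in the main fit (edgeR, adjusted p = 0.0521). A gene that did not pass is thus not shown to be unchanged.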
